A study of Mus musculus with 11 samples.

Results

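KIT+ spermatogonia of 15-month-old mice were compared with KIT+ spermatogonia of 6-day-old mice. The members were chosen by sample label alone: 2 libraries from 15-month mice and 2 from 6-day mice, 4 of the 11 RNA-seq libraries in the series. All groups came from the B6;CBA-Tg(Pou5f1-EGFP)2Mnn/J strain, in which a Pou5f1 (Oct4) promoter transgene drives GFP, and all cells were sorted by flow cytometry as Oct4-GFP+ germ cells, either with KIT on the surface (KIT+) or without it (KIT-). The series holds 2 libraries each of 6-day KIT-, 6-day KIT+, 8-month KIT-, 15-month KIT- and 15-month KIT+ cells and 1 library of 8-month KIT+ cells, and no other treatment or allele separates the groups. The labels give 6 days and 15 months as the ages, and the methods describe each population as sorted in 2 independent experiments, without the number of animals behind a library. In bulk RNA of this kind, fewer cells of a type and less RNA per cell cannot be told apart.

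Spermatogonia are the mitotic germ cells of the testis. Undifferentiated spermatogonia, among them the spermatogonial stem cells, are kept by GDNF, a growth factor of the Sertoli cells that signals through the receptor tyrosine kinase RET and its co-receptor GFRA1, and by FGF. Retinoic acid moves them into differentiation, at which point they gain KIT, the receptor of stem cell factor, along with STRA8 and the DNA methyltransferase DNMT3B. In the newborn testis, spermatogonia arise from gonocytes and some differentiate directly, whereas in the adult all differentiating cells descend from the stem cell pool.

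The 6-day KIT+ libraries held 37445553 and 25371500 reads on genes and the 15-month KIT+ libraries 59205894 and 76756534, against 12238325 to 76756534 over all 11 libraries. Expression is given as RPKM (reads per kilobase of exon, scaled to library size), for replicates 1 and 2 in that order, and 3 reads on a gene of 1 kb were worth 0.0391 to 0.118 RPKM in these 4 libraries. As a distance between libraries, the log2(RPKM + 1) differences of the tested genes were squared, averaged and square-rooted: this gave 0.355 and 0.369 for KIT+ libraries of the same age and 0.616 to 0.668 for those of different ages. *Kit* itself, the gene of the sorted receptor, was listed at 38.3 and 35.8 RPKM in 6-day KIT+ cells and 67.8 and 62.8 RPKM in 15-month KIT+ cells, against 3.36 and 3.37 RPKM in 6-day KIT- cells and 9.66 and 7.88 RPKM in 15-month KIT- cells. *Kit* levels therefore separated KIT+ from KIT- libraries at both ages, as the labels say. Of the other label gene, *Pou5f1*, 6-day KIT+ cells held 11.6 and 9.73 RPKM and 15-month KIT+ cells 9.05 and 3.88 RPKM (adjusted p = 0.193).

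Marker lists of other cell types were summed in each library, to see what else the sorts could hold. Macrophage markers stood apart: their summed level was 5.27 to 6.26 RPKM in 6-day KIT+ cells and 35.1 and 141 RPKM in 15-month KIT+ cells, with 13 of 26 tested members higher at 15 months and 0 lower. Differences are log2 fold changes of RPKM + 1 (15 months over 6 days), and adjusted p-values come from limma with Benjamini-Hochberg adjustment over all genes tested. The class II genes *Cd74* (6.28 and 33.4 RPKM at 15 months, 0.152 and 0.168 RPKM at 6 days) and *H2-Aa*, the lysozyme gene *Lyz2* (7.32 and 20.6 RPKM against 0.0407 and 0.0300 RPKM) and the CSF1 receptor *Csf1r* (0.766 and 1.55 RPKM against 0.00511 and 0 RPKM) were among them, and the chemokine *Ccl4*, which is not on the list, was at 4.38 and 20.98 RPKM against 0 and 0.0597 RPKM. Each of these 5 genes was highest in 15-month replicate 2. Of the 5 defining macrophage markers, *Csf1r*, *Lyz2*, *C1qa* and *Emr1* (the gene of F4/80) were higher and *Cd68* was at 0.323 and 1.58 RPKM at 15 months against 1.848 and 0.721 RPKM at 6 days. Without 15-month replicate 1 the list had 16 members higher, without 15-month replicate 2 it had 7 higher and 1 lower, and without 6-day replicate 1 or 2 it had 3 and 2 higher. Without 6-day replicate 1 or 2, *Cd74* (adjusted p = 0.051 and 0.059), *H2-Aa* (0.066 and 0.061) and *C1qa* (0.077 and 0.17) lost their calls, and without 15-month replicate 2 the adjusted p of *H2-Aa* was 0.056. With voom on recovered reads 5 members were higher, and *Cd74* (adjusted p = 0.16), *H2-Aa* (0.16), *Lyz2* (0.06), *Ccl4* (0.12) and *C1qa* (0.12) were not called; after a length and GC correction 7 members could be tested and 4 were higher. The part of macrophage RNA in the other results was not tested.

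The summed markers of other somatic cell types were of unequal level. Sertoli cell markers summed to 111.5 and 110.7 RPKM at 6 days and 113 and 127 RPKM at 15 months, with their defining gene *Sox9* at 0.161 to 0.296 RPKM in the 4 libraries and *Amh*, the anti-Müllerian hormone of immature Sertoli cells, at 3.03 and 1.52 RPKM at 6 days and 0.0101 and 0.0783 RPKM at 15 months (adjusted p = 0.00563). Leydig cell markers summed to 9.67 and 8.52 RPKM at 6 days and 19.03 and 22.95 RPKM at 15 months, with *Insl3* listed at 0 in every library, and 2 of 11 tested members were higher. These were the HDL receptor *Scarb1* (6.31 and 5.23 RPKM to 11.2 and 11.2 RPKM) and the fatty acid binding protein *Fabp3* (0.130 and 0.240 RPKM to 4.95 and 3.66 RPKM), which lost its call without 15-month replicate 1 or 2 (adjusted p = 0.094 and 0.053) or 6-day replicate 1 or 2 (0.071 and 0.07). Stromal markers summed to 11.3 to 14.6 RPKM. Endothelial markers summed to 7.81 to 13.0 RPKM, with the tight junction gene *Cldn5* called higher (0.264 and 0.112 RPKM to 2.19 and 2.82 RPKM), oocyte markers to 16.5 to 21.9 RPKM, red blood cell markers to 4.85 to 8.53 RPKM, and lymphocyte and mast cell markers to 0.361 to 1.77 RPKM. The spermatid list, whose defining gene *Acrv1* was listed at 0, summed to 59.6 and 59.8 RPKM at 6 days and 95.5 and 103 RPKM at 15 months, and to 1273 and 682 RPKM in 15-month KIT- cells. Of 48 tested spermatid genes 7 were higher in 15-month than in 6-day KIT+ cells and 2 lower, and with a library left out 1 or 2 were higher and 0 or 1 lower. *Tnp2*, a transition protein, was at 0.0973 and 0.0718 RPKM at 6 days and 2.37 and 1.57 RPKM at 15 months (1.44 ± 0.22, adjusted p = 0.0053), and was not called with voom (0.059). The protamine *Prm2* was at 0.259 and 0.191 RPKM and 3.94 and 5.86 RPKM, and lost its call without 15-month replicate 1 or 2 (adjusted p = 0.054 and 0.078), without 6-day replicate 1 or 2 (0.057 and 0.072) and with voom (0.23). Germ cell lists were the highest in all 4 KIT+ libraries: meiotic prophase genes summed to 1460 to 1707 RPKM, undifferentiated genes to 542 to 638 RPKM and differentiating genes to 459 to 640 RPKM.

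**Figure D1:**
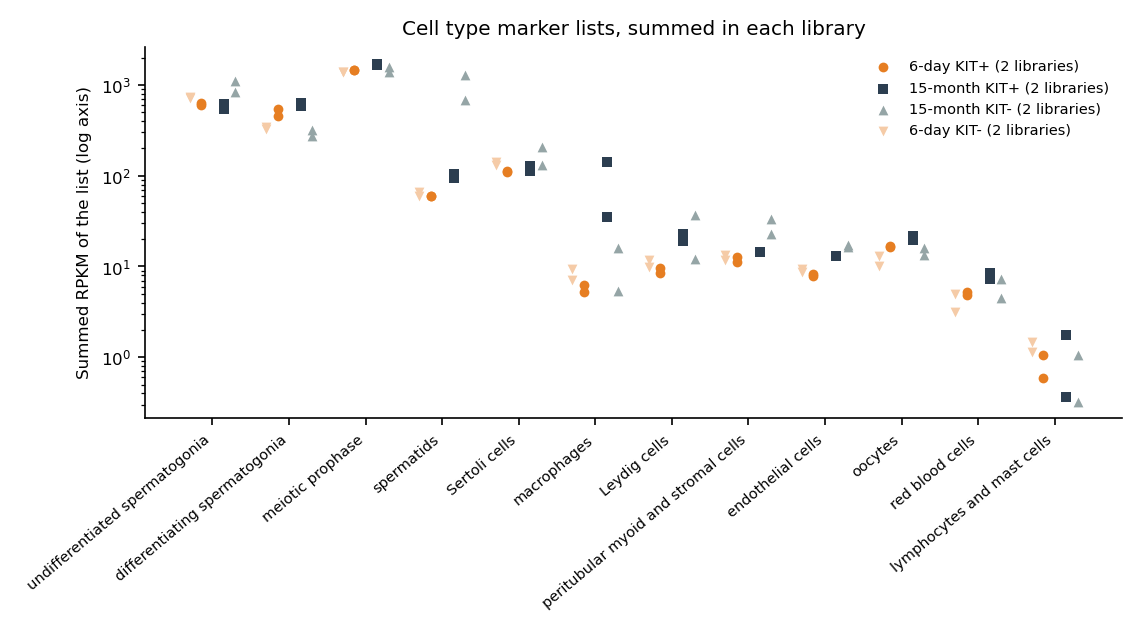
Summed RPKM (log axis) of each cell type marker list, with 1 point for each library of 6-day and 15-month KIT+ and KIT- cells. Macrophage markers reached 35.1 and 141 RPKM in 15-month KIT+ cells against 5.27 to 6.26 RPKM in 6-day KIT+ cells, and spermatid markers were highest in 15-month KIT- cells.

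Of 18412 genes tested, 2766 (15.0%) passed an FDR of 0.05 and a fold change of 1.5 between 15-month and 6-day KIT+ cells, 1671 (9.08%) higher and 1095 (5.95%) lower at 15 months. These shares of all genes are the background for every count of list members. Among coding genes, *Etv5*, *Dusp6* and *Gfra1* of the GDNF and FGF pathways were among the largest losses, and class II genes, *Lyz2*, the growth factor adaptor *Grb10* and the histone gene *Hist3h2ba* among the largest gains. The 4 libraries did not overlap in 11707 genes (63.6%), among them all 2766 called, and the median log2 fold change over all genes was 0.04. On the log2(RPKM + 1) scale, which understates changes of low genes, a change of at least 4-fold was seen for 50 genes called higher and 83 called lower. Coding genes made up 1592 of those that rose and 978 of those that fell. On the X chromosome 40 of 778 tested genes rose and 76 fell (median log2 fold change -0.06). With median-of-ratios scaling the split turned to 1333 higher and 1383 lower, and with any 1 of the 4 libraries left out 1167 to 1728 genes were called.

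**Figure D2:**
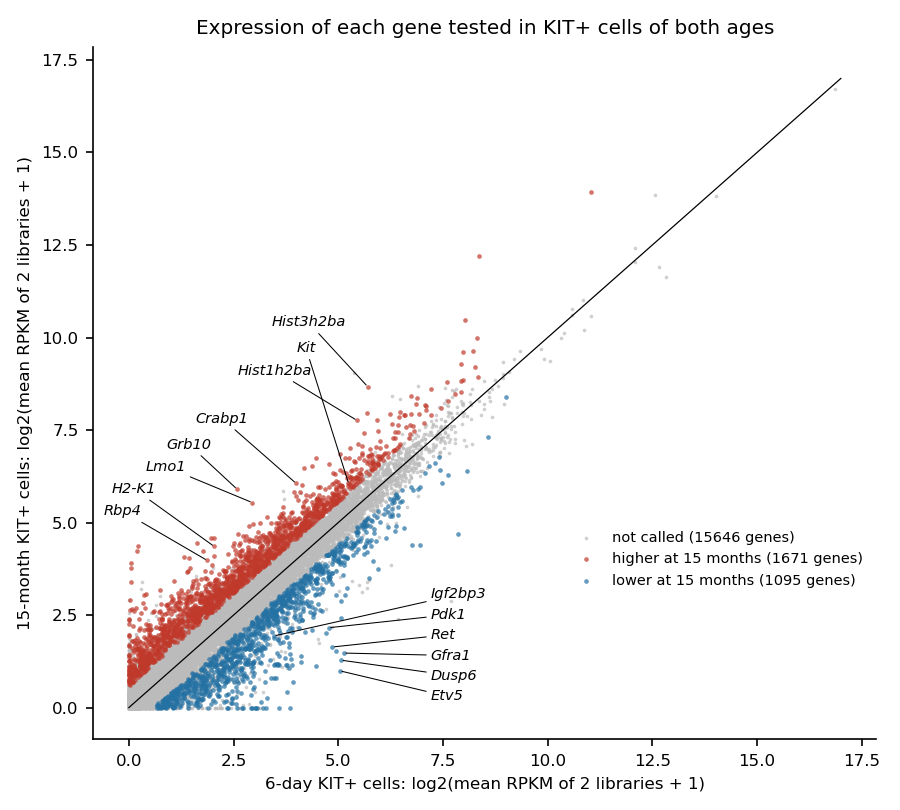
Mean expression of each of the 18412 genes tested in 6-day KIT+ cells (x axis) and 15-month KIT+ cells (y axis), as log2(mean RPKM + 1) of 2 libraries each, with the line of equal expression. The 1671 genes called higher at 15 months lie above the line and the 1095 called lower lie under it; *Etv5*, *Dusp6*, *Gfra1* and *Ret* lie near 1 to 2 RPKM at 15 months.

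Genes of GDNF and FGF signalling, from receptors to targets, were lower in 15-month KIT+ cells. Of 26 tested members of the list, 12 fell and 2 rose, with a median log2 fold change of -0.43 against 0.04 over all genes. The co-receptor *Gfra1* (ENSMUSG00000025089, mm9 chr19:58310094-58530399) went from 35.6 and 32.7 RPKM to 2.15 and 1.41 RPKM, a log2 fold change of -3.67 ± 0.21 (SE, adjusted p = 2.75e-04). *Ret*, the kinase that it pairs with (ENSMUSG00000030110, mm9 chr6:118101766-118147762), went from 30.4 and 25.8 RPKM to 2.37 and 1.86 RPKM (-3.23 ± 0.14, adjusted p = 1.08e-04). The 15-month means of these receptor genes lay 19.2-fold (*Gfra1*) and 13.3-fold (*Ret*) under the 6-day means. *Etv5*, an ETS transcription factor that GDNF and FGF induce (ENSMUSG00000013089, mm9 chr16:22381382-22439792), fell further than the other called genes on the log2(RPKM + 1) scale: 29.4 and 34.4 RPKM at 6 days and 1.16 and 0.822 RPKM at 15 months (-4.05 ± 0.16, adjusted p = 1.08e-04). Its relative *Etv4* went from 17.7 and 24.5 RPKM to 1.19 and 1.15 RPKM (-3.33 ± 0.23). The feedback phosphatase *Dusp6*, which switches off ERK (ENSMUSG00000019960, mm9 chr10:98725865-98730122), went from 28.0 and 37.3 RPKM to 0.900 and 1.96 RPKM (-3.81 ± 0.29, adjusted p = 5.05e-04). The other members that fell were *Spry4*, *Spred1*, *Spred2*, *Dusp4* and *Dusp5*, which restrain the same pathway, and the stem cell transcription factors *Bcl6b* and *Lhx1*. The 2 members that rose were the ligand *Fgf2* and the AP-1 gene *Fosb* (1.25 and 1.303 RPKM to 5.96 and 6.83 RPKM). With a library left out, 8 or 9 members were called lower and 1 or 2 higher. The single 8-month KIT+ library held 1.16 RPKM of *Etv5*, 1.63 RPKM of *Gfra1*, 2.16 RPKM of *Ret* and 0.777 RPKM of *Dusp6*, which puts it beside the 15-month libraries.

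The promoters of the ETS factor and the phosphatase are shown because both genes fell together and ETS proteins bind a core of which GGAAG is 1 form. Genes and motifs for this display were chosen after their values were seen. They are the 250 bases before the RefSeq start (GRCm38.p6, minus strand at chr16:22438369-22438618 for the second listed start of *Etv5* and plus strand at chr10:99262981-99263230 for *Dusp6*), with GGAAG, or CTTCC where it lies on the other strand, in capitals.
Etv5: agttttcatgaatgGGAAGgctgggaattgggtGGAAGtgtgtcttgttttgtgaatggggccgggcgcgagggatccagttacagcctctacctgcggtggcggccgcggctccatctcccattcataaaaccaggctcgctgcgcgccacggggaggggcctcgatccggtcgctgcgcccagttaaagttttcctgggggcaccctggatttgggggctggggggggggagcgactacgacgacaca
Dusp6: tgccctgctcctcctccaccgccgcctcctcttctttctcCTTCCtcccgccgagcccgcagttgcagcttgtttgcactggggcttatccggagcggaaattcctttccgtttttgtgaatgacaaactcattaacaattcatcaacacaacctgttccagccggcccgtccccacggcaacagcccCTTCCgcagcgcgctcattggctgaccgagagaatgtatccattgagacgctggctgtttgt
Each window held 2 matches, and 64.1% of 32851 promoter windows held at least 1. The first listed start of *Etv5* and the start of *Gfra1* had 0 matches to GGAAG in their windows. Other forms of the ETS core were neither searched for nor marked in any window.

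Genes of undifferentiated spermatogonia followed the same direction, although several are the same genes. Of 30 tested markers, 12 fell and 2 rose (median log2 fold change -0.61), and 11 to 13 fell with a library left out. *Id4*, an inhibitor of basic helix-loop-helix factors that marks stem cells, went from 6.71 and 6.48 RPKM to 0.275 and 0.235 RPKM (-2.597 ± 0.27, adjusted p = 0.00129). The tetraspanin *Tspan8* went from 8.30 and 11.7 RPKM to 0.544 and 0.916 RPKM (-2.66 ± 0.21). *Zbtb16*, which encodes PLZF, kept most of its expression, at 54.1 and 46.7 RPKM against 31.6 and 27.9 RPKM (-0.74 ± 0.12, adjusted p = 0.00653). The fall of these means was 1.69-fold in *Zbtb16* and 32.2-fold in *Etv5*. *Nanos2*, an RNA-binding factor of stem cells, was at 1.62 and 0.493 RPKM at 6 days and 0.0235 and 0.00905 RPKM at 15 months and was not called (adjusted p = 0.0746). The members that rose were the uridine phosphorylase *Upp1* and the deubiquitinase *Uchl1*.

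Further genes with the largest falls are not on those lists. The secreted matrix protein *Smoc2* went from 30.4 and 29.3 RPKM to 2.20 and 1.62 RPKM (-3.41 ± 0.16, adjusted p = 1.29e-04). The nicotinic receptor subunit *Chrna4* went from 13.1 and 12.3 RPKM to 0.308 and 0.385 RPKM (-3.34 ± 0.20), a 36.6-fold fall of the mean against 32.2-fold for *Etv5*. *Tcl1*, a co-activator of AKT, went from 15.2 and 13.0 RPKM to 0.540 and 0.706 RPKM (-3.21 ± 0.29), whereas the 8-month library held 7.65 RPKM. The fatty acid elongase *Elovl6*, the transcription factor *Glis3* and the phosphatase *Ptpn13* were at 10.33 to 17.6 RPKM at 6 days and 0.525 to 1.79 RPKM at 15 months, with log2 fold changes of -2.88, -2.72 and -2.70. *Gm17380*, an annotated coding gene with only 51 bases of exon, was at 16.8 and 10.1 RPKM at 6 days and listed at 0 at 15 months, and lost its call with any of the 4 libraries left out (15-month replicates 0.15 and 0.13, 6-day replicates 0.15 and 0.11, adjusted p).

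**Figure D3:**
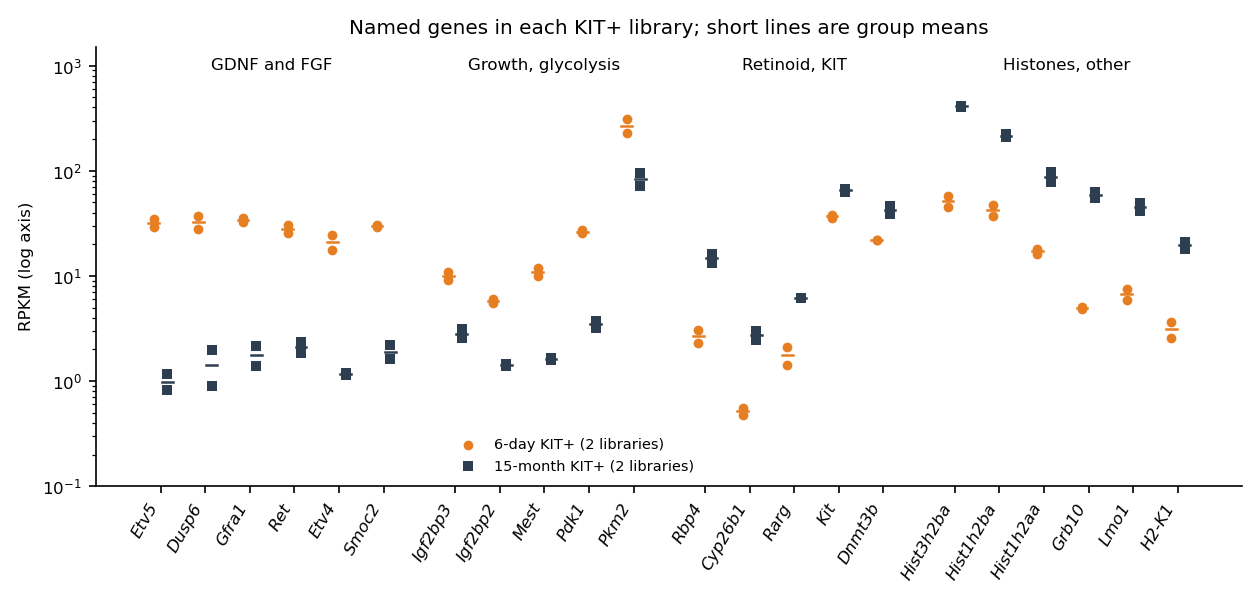
RPKM (log axis) of named genes in each of the 2 libraries of 6-day and of 15-month KIT+ cells; the short lines are the means of 2 libraries. Only genes called between the ages are shown. The libraries of the 2 ages did not overlap in any of the 2766 called genes, nor in 63.6% of all genes tested. *Etv5*, *Dusp6* and *Gfra1* lie between 0.822 and 2.15 RPKM at 15 months.

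Of 40 tested genes of BMP, activin, Nodal and TGF-beta signalling, 5 rose and 5 fell (median 0.09), against 9.08% and 5.95% of all genes. *Fst*, which encodes the activin antagonist follistatin, went from 33.2 and 31.5 RPKM to 4.55 and 4.21 RPKM (-2.63 ± 0.17, adjusted p = 2.98e-04). *Id1*, *Id2* and *Id3*, direct BMP targets, rose, the opposite of *Id4*. *Id2* was at 0.568 and 0.435 RPKM at 6 days and 3.72 and 6.32 RPKM at 15 months (1.97 ± 0.31, adjusted p = 0.00595), and *Id1* at 0.484 and 0.646 RPKM and 3.79 and 3.28 RPKM (1.53 ± 0.26), a call that was lost without 15-month replicate 1 (adjusted p = 0.058). In the Wnt list 3 of 45 tested members rose and 4 fell (median 0.01). The secreted Wnt antagonist *Sfrp2* went from 24.1 and 26.3 RPKM to 3.19 and 2.97 RPKM (-2.68 ± 0.24), and *Nkd2*, an intracellular antagonist, from 1.73 and 1.53 RPKM to 5.33 and 6.47 RPKM (1.39 ± 0.20). Both lists had fewer calls with a library left out, at most 4 higher and 3 lower each.

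Genes of retinoic acid handling were higher in 15-month KIT+ cells. Of 21 tested members, 7 rose and 1 fell (median log2 fold change 0.29), and 3 to 6 rose with a library left out. *Rbp4*, which encodes the plasma retinol carrier, rose from 2.29 and 3.04 RPKM to 16.2 and 13.3 RPKM (2.10 ± 0.33, adjusted p = 0.00547). *Crabp1*, the cytoplasmic retinoic acid binding protein, was at 17.7 and 12.2 RPKM at 6 days and 64.8 and 66.7 RPKM at 15 months (2.09 ± 0.37), a call that was lost without 15-month replicate 1 or 2 or 6-day replicate 2 (adjusted p = 0.058, 0.051 and 0.064). *Cyp26b1*, an enzyme that degrades retinoic acid, rose from 0.476 and 0.557 RPKM to 2.47 and 2.98 RPKM (1.29 ± 0.17, adjusted p = 0.00282). The receptor *Rarg*, which carries the signal in spermatogonia, rose from 2.11 and 1.42 RPKM to 6.22 and 6.22 RPKM (1.396 ± 0.16, adjusted p = 0.00194). The other members that rose were the receptors *Rarb* and *Rxrb* and the synthetic enzyme *Aldh1a2*, and the member that fell was the receptor *Rxrg*. *Stra8*, the classic retinoic acid target, was at 123 and 80.2 RPKM at 6 days and 170 and 141 RPKM at 15 months, and the difference did not pass the test (0.64 ± 0.22, adjusted p = 0.0900).

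Of 18 tested markers of differentiating spermatogonia, 7 rose and 1 fell (median 0.41), and 5 to 8 rose with a library left out. *Kit* was 1.76-fold higher at 15 months (0.80 ± 0.12, adjusted p = 0.00464). *Dnmt3b* rose from 22.2 and 21.95 RPKM to 46.5 and 39.0 RPKM (0.92 ± 0.12, adjusted p = 0.00299). The X-linked homeobox gene *Esx1* (ENSMUSG00000023443, mm9 chrX:133649936-133656622) was close to the detection limit at 6 days, at 0.269 and 0.377 RPKM, and at 6.97 and 7.96 RPKM at 15 months (2.68 ± 0.18, adjusted p = 3.61e-04). The member that fell was cyclin D2, *Ccnd2*, from 36.6 and 34.8 RPKM to 9.43 and 7.33 RPKM (-1.98 ± 0.19, adjusted p = 0.00101). *Sohlh1*, a transcription factor of early differentiation, was at 25.5 and 18.5 RPKM and 30.1 and 23.7 RPKM and overlapped between the ages. Downstream of KIT, the kinase *Akt1* rose from 15.5 and 12.5 RPKM to 40.4 and 36.2 RPKM (1.39 ± 0.15, adjusted p = 0.00141), while the catalytic subunits of PI3K, *Pik3ca* (9.77 and 11.8 RPKM to 4.59 and 4.08 RPKM, -1.14 ± 0.13) and *Pik3cd* (10.4 and 9.71 RPKM to 4.24 and 3.16 RPKM, -1.24 ± 0.17), fell. Of 32 tested genes of the KIT, PI3K and mTOR list, 4 rose and 2 fell (median 0.01), against 9.08% and 5.95% of all genes.

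Some genes of meiosis were also higher. Of 47 tested genes of meiotic prophase, 12 rose and 3 fell (median 0.26), although only 4 or 5 rose with a library left out. *Ccna1*, the meiotic cyclin A1, rose from 1.21 and 1.11 RPKM to 6.09 and 6.06 RPKM (1.71 ± 0.24, adjusted p = 0.00391). *Mei1*, required for meiotic double-strand breaks, rose from 5.37 and 6.404 RPKM to 15.6 and 14.7 RPKM (1.23 ± 0.16). *Syce2*, of the central element of the synaptonemal complex, rose from 13.4 and 10.8 RPKM to 39.4 and 28.1 RPKM (1.397 ± 0.21). These 3 kept their calls without any 1 library. The axis gene *Sycp3* was at 38.4 and 38.8 RPKM at 6 days and 68.6 and 78.6 RPKM at 15 months (0.91 ± 0.24, adjusted p = 0.0345), and lost its call with any of the 4 libraries left out (15-month replicates 0.11 and 0.16, 6-day replicates 0.13 and 0.13, adjusted p). The synaptonemal complex gene *Sycp1*, the recombinase *Dmc1* and *Spo11*, whose product makes the double-strand breaks, were not called (adjusted p = 0.832, 0.103 and 0.392). In the piRNA pathway, 6 of 27 tested members rose and 2 fell, among them the helicase *Tdrd9* at 30.8 and 29.2 RPKM against 71.1 and 65.7 RPKM (1.16 ± 0.09, adjusted p = 5.35e-04).

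Histone genes held some of the largest gains. Of 60 tested linker and replication-dependent histone genes, 13 rose and 3 fell (median 0.38), and 10 to 13 rose with a library left out. *Hist3h2ba* (ENSMUSG00000056895, mm9 chr11:58762413-58763032) rose from 56.9 and 45.1 RPKM to 410 and 406 RPKM (2.98 ± 0.15, adjusted p = 1.75e-04). *Hist1h2ba* (mm9 chr13:24025637-24026025), which encodes the testis H2B variant TH2B, rose from 47.7 and 37.5 RPKM to 208 and 224 RPKM (2.32 ± 0.33, adjusted p = 0.00412). Its neighbour on the other strand *Hist1h2aa* (mm9 chr13:24026331-24026720), which encodes the testis H2A variant TH2A, rose from 16.0 and 18.2 RPKM to 78.2 and 98.1 RPKM (2.29 ± 0.32, adjusted p = 0.00372). The 8-month KIT+ library lay between the 6-day and 15-month libraries in this gene pair, at 61.0 RPKM of *Hist1h2ba* and 42.7 RPKM of *Hist1h2aa*. Of the linker histones *Hist1h1b* fell from 16.8 and 7.85 RPKM to 1.86 and 1.23 RPKM (-2.31 ± 0.42), a call that was lost without 15-month replicate 2 (adjusted p = 0.057). Many histone genes are near-identical in sequence, so that reads may be split between copies, and the libraries were made from ribosome-depleted RNA rather than poly(A) RNA. They are also short, with 620 bases of exon in *Hist3h2ba* and 389 in *Hist1h2ba*, and the result moved with gene length. After a length and GC correction 53 members could be tested, of which 10 rose and 6 fell (median 0.15).

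The testis histone pair starts from a shared stretch of DNA, with the starts 281 bases apart on opposite strands in RefSeq (GRCm38.p6). It is shown, plus strand, chr13:23934187-23934436, as the 250 bases before the start of *Hist1h2aa*, since both genes rose together; CCAAT, or ATTGG where it lies on the other strand, is in capitals.
Hist1h2aa and Hist1h2ba: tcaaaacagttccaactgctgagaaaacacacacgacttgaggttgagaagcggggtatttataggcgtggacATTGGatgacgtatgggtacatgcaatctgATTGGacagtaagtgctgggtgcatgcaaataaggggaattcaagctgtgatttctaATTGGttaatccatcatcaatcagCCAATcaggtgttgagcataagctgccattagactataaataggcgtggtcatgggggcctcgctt
The window held 4 CCAAT matches, and 33.8% of the 32851 promoter windows held at least 1.

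Some glycolytic and fetal growth genes fell. In the glycolysis list 6 of 24 tested members fell and 3 rose (median -0.35). *Pdk1*, the kinase that inhibits pyruvate dehydrogenase (ENSMUSG00000006494, mm9 chr2:71711281-71741915), fell from 27.1 and 25.6 RPKM to 3.704 and 3.23 RPKM (-2.61 ± 0.12, adjusted p = 1.10e-04). *Pkm2*, the pyruvate kinase gene, fell from 310 and 227 RPKM to 94.7 and 70.9 RPKM (-1.68 ± 0.21, adjusted p = 0.00265). The other members that fell were *Slc2a3*, *Pfkp*, *Ldha* and *Ldhb*. With a library left out 4 or 5 members fell and 2 rose. In the list of fetal growth genes of the let-7 and IGF axis, 7 of 24 tested members fell, 2 rose and 15 were not called (median -0.02). The RNA-binding proteins *Igf2bp3* (9.11 and 11.01 RPKM to 3.10 and 2.56 RPKM, -1.53 ± 0.15, adjusted p = 0.00112) and *Igf2bp2* (5.55 and 6.08 RPKM to 1.397 and 1.44 RPKM, -1.49 ± 0.13) fell, and so did *Igf2bp1*, *Trim71* and *Mycn*.

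Of 45 tested imprinted genes, 8 fell and 1 rose (median 0.04). *Mest* fell from 9.89 and 12 RPKM to 1.57 and 1.67 RPKM (-2.18 ± 0.16, adjusted p = 4.80e-04), and *Peg10* from 6.50 and 7.40 RPKM to 1.54 and 2.19 RPKM (-1.48 ± 0.18), both of them paternally expressed. The gene that rose was *Grb10* (ENSMUSG00000020176, mm9 chr11:11830511-11938686), an adaptor that restrains insulin and IGF receptor signalling, from 4.90 and 5.08 RPKM to 62.3 and 55.6 RPKM (3.32 ± 0.18, adjusted p = 1.93e-04). It was 11.8-fold higher at 15 months, and the 8-month library held 76.9 RPKM. With a library left out, 3 to 5 imprinted genes fell and 1 or 2 rose, *Grb10* in every case.

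Ribosomal protein genes and nuclear genes of oxidative phosphorylation were higher at 15 months, a result that moved with gene length. Of 83 ribosomal protein genes, 24 rose and 1 fell (median 0.44), and of 77 tested genes of oxidative phosphorylation, 23 rose and 0 fell (median 0.58). *Rpl34* rose from 31.9 and 24.7 RPKM to 92.5 and 67.6 RPKM (1.46 ± 0.18, adjusted p = 0.00241), and the complex I subunit *Ndufb9* from 47.7 and 45.1 RPKM to 136 and 130 RPKM (1.499 ± 0.13, adjusted p = 7.57e-04). These are short genes, and when coding genes of at least 5 RPKM were split into 4 groups by exon length, the median log2 fold change was 0.41 in the group with the shortest exons and -0.03 in that with the longest, where 27.1% and 9.21% of genes were called higher. After a correction for length and GC content within each library, 17 ribosomal protein genes rose and 5 fell (median 0.21), and 20 genes of oxidative phosphorylation rose and 2 fell (median 0.30). Leaving out 15-month replicate 1 or 6-day replicate 2 left 3 and 7 genes of oxidative phosphorylation that rose and leaving out 15-month replicate 2 or 6-day replicate 1 left 17 and 24, and for ribosomal proteins any library left out left 8 to 16. Genes encoded by the mitochondrial genome went the other way in level, with a median of -0.50 over 12 tested, of which *mt-Nd6* alone was called (16.4 and 17.2 RPKM to 7.26 and 9.39 RPKM), a call that was lost without 15-month replicate 1 (adjusted p = 0.09), 6-day replicate 1 (0.054) or 6-day replicate 2 (0.075).

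**Figure D4:**
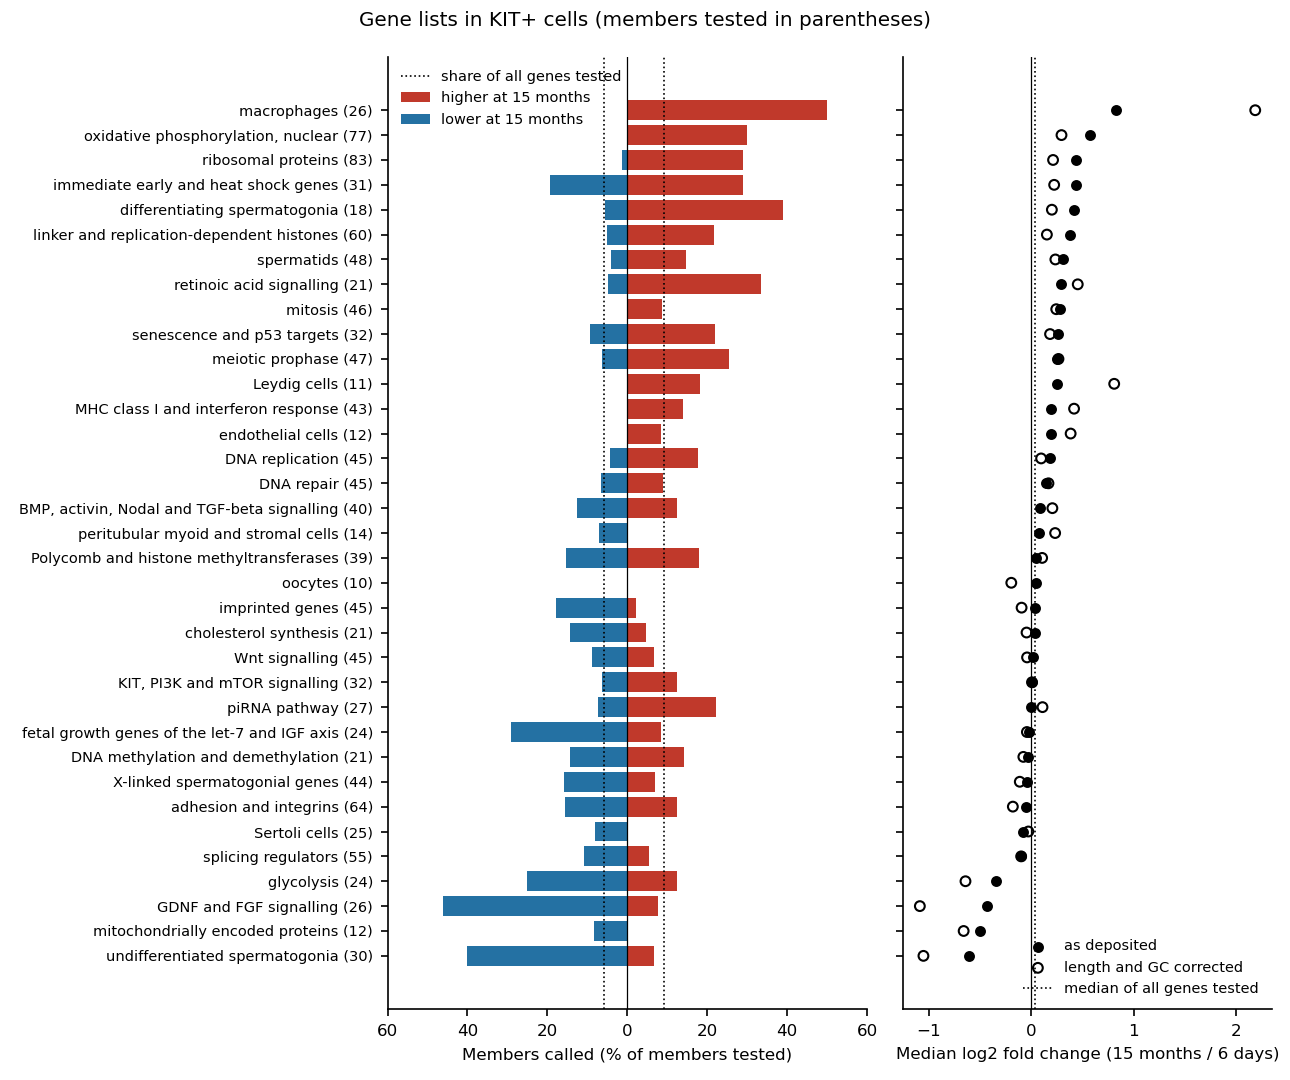
Left, the percentage of tested members of each list called higher (red, to the right) or lower (blue, to the left) at 15 months, with the share over all genes tested as dotted lines (9.08% and 5.95%). Right, the median log2 fold change of each list as deposited (filled) and after length and GC correction (open); of the filled points, undifferentiated spermatogonia (-0.61), mitochondrially encoded proteins (-0.50) and GDNF and FGF signalling (-0.43) lie lowest and macrophages highest.

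Of 43 tested genes of MHC class I and the interferon response, 6 rose and 0 fell (median 0.19), against 9.08% and 5.95% of all genes, and 3 to 5 rose with a library left out. *H2-K1*, a class I heavy chain, rose from 3.62 and 2.599 RPKM to 18.0 and 20.9 RPKM (2.33 ± 0.29, adjusted p = 0.00253). *Bst2*, the virus-tethering protein tetherin, rose from 2.80 and 2.73 RPKM to 10.97 and 7.47 RPKM (1.42 ± 0.18, adjusted p = 0.00282). *Gbp2*, an interferon-induced GTPase, rose from 0.456 and 0.298 RPKM to 4.35 and 2.39 RPKM (1.63 ± 0.26, adjusted p = 0.00622). The 6-day and 15-month libraries did not overlap in any of the 3. This adds nothing to their calls, since none of the 2766 called genes overlapped, nor did 63.6% of all genes tested. All 3 genes stayed higher at 15 months with any 1 KIT+ library left out, with log2 fold changes of at least 1.17. The list summed to 46.3 and 48.4 RPKM at 6 days and 94.1 and 91.5 RPKM at 15 months in KIT+ cells. In KIT- cells it summed to 48.3 and 54.9 RPKM and to 244 and 292 RPKM. The KIT+ age difference was called under the KIT- age difference in 9 members and above it in 0. Macrophage markers rose in the same KIT+ libraries and summed to 16.0 and 5.43 RPKM in 15-month KIT- cells. Their part here was not tested.

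The promoters of *Bst2* and *Gbp2* are shown because both hold the core of the interferon-stimulated response element (TTTC, any 2 bases and TTTC again, on either strand), which 2.98% of 32851 promoter windows held. They were chosen for holding it: of the 6 members that rose, 4 had a promoter entry, and 3 of these held a match (*Bst2*, *Gbp2* and *Gbp3*; *H2-K1* had 0). They are the 250 bases before the RefSeq start (GRCm38.p6, minus strand at chr8:71537473-71537722 and plus strand at chr3:142620413-142620662), with the matches in capitals; the *Bst2* window has 2 that overlap.
Bst2: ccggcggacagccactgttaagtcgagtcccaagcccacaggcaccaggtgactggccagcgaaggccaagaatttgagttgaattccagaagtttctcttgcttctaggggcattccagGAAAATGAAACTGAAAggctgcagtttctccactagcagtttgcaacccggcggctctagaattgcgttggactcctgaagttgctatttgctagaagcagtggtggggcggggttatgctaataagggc
Gbp2: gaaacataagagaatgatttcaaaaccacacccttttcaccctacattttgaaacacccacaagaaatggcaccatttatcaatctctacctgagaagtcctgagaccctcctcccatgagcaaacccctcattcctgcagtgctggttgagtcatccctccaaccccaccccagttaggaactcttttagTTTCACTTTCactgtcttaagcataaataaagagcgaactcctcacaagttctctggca

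Of 31 tested immediate early and heat shock genes, 9 rose and 6 fell (median 0.44). The zinc finger factors *Egr2* and *Egr1* fell, *Egr2* from 6.36 and 6.72 RPKM to 0.805 and 1.44 RPKM (-1.84 ± 0.21, adjusted p = 0.00168) and *Egr1* from 6.998 and 5.21 RPKM to 1.296 and 1.26 RPKM (-1.63 ± 0.26). The AP-1 gene *Fosb* rose (1.70 ± 0.21, adjusted p = 0.00245), as did *Fos*, *Junb* and *Jund*; these genes were picked after their values were seen. With a library left out 3 or 4 members rose and 3 to 5 fell.

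Cell cycle inhibitors and p53 targets were mixed. Of 32 tested genes of the senescence and p53 list, 7 rose and 3 fell (median 0.26), with 3 to 5 and 1 to 3 with a library left out. *Cdkn2a*, the locus of INK4A and ARF, was at 7.97 and 4.68 RPKM at 6 days and 17.1 and 15.3 RPKM at 15 months (1.27 ± 0.22, adjusted p = 0.00792), a call that was lost without 15-month replicate 1 (adjusted p = 0.061). The 3 members that fell were *Cdkn1b*, *Mdm4* and *Pmaip1*. The chemokine *Ccl2* (0.0469 and 0 RPKM to 2.55 and 10.5 RPKM) followed the macrophage genes in being highest in 15-month replicate 2, and lost its call without 6-day replicate 1 or 2 (adjusted p = 0.051 and 0.063). In the list of DNA methylation genes, 3 of 21 tested rose and 3 fell; *Dppa3*, which shields DNA from demethylation, rose from 0.928 and 1.502 RPKM to 6.12 and 5.02 RPKM (1.58 ± 0.24). Of 39 Polycomb and histone methyltransferase genes 7 rose and 6 fell, and *Pcgf6* fell from 14.9 and 17.03 RPKM to 5.35 and 4.30 RPKM (-1.55 ± 0.17, adjusted p = 0.00156). Over all genes tested 9.08% rose and 5.95% fell, the background for each list in this paragraph.

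Genes of cell adhesion and junctions changed in both directions: 10 of 64 tested fell and 8 rose (median -0.05), and 8 fell and 1 to 5 rose with each library left out. *Itgb5*, an integrin subunit, fell from 18.9 and 19.1 RPKM to 5.09 and 4.98 RPKM (-1.73 ± 0.10, adjusted p = 2.75e-04). The tight junction gene *Ocln* (7.63 and 8.14 RPKM to 2.23 and 1.81 RPKM, -1.56 ± 0.13) fell as well. The RNA-binding protein *Msi2* fell from 12.6 and 13.3 RPKM to 6.73 and 6.54 RPKM (-0.87 ± 0.12), in a list of splicing regulators of which 6 of 55 fell and 3 rose. Of 44 X-linked spermatogonial genes 7 fell and 3 rose, among them the deubiquitinase *Usp9x* (64.8 and 73.4 RPKM to 22.5 and 23.5 RPKM, -1.54 ± 0.11, adjusted p = 3.61e-04). Over all genes tested 5.95% fell and 9.08% rose, the background for each list in this paragraph.

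Among 1298 tested non-coding genes (lincRNA, antisense and processed transcript), 28 rose and 50 fell. Both are smaller shares than the 9.08% and 5.95% of all genes tested. The lincRNA *Gm11019* (mm9 chr13:98204925-98266960) fell from 4.57 and 4.40 RPKM to 0.205 and 0.196 RPKM (-2.19 ± 0.20, adjusted p = 7.57e-04). The processed transcript *AI662270* (mm9 chr11:83037078-83040106) fell from 11.5 and 13.8 RPKM to 2.28 and 3.18 RPKM (-1.88 ± 0.23, adjusted p = 0.00224). The processed transcript *1810058N05Rik* was at 6.52 and 3.68 RPKM at 6 days and 26.7 and 22.7 RPKM at 15 months (2.11 ± 0.44), and lost its call without 15-month replicate 1 or 2 or 6-day replicate 2 (adjusted p = 0.095, 0.062 and 0.096). Whether counting used the strand is not given in the sources used here, so reads of overlapping genes cannot be told apart from theirs.

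Whether these differences are shared with KIT- cells of the same ages was tested as the difference of the age differences. Of the 18412 genes, 710 (3.86%) differed, with the KIT+ age difference above that of KIT- cells in 169 and under it in 541. Among the genes called between the ages in KIT+ cells, 80 of the 1671 higher and 109 of the 1095 lower ones differed. *Chrna4* and *Grb10*, for example, had log2 fold changes of -3.27 and 2.61 in KIT- cells and no called difference. The lack of a call does not show that a change was equal in both fractions. *Ret* fell further in KIT+ cells: in KIT- cells it was at 57.0 and 55.8 RPKM at 6 days and 20.3 and 25.0 RPKM at 15 months, a log2 fold change of -1.29, against -3.23 in KIT+ cells (difference -1.94 ± 0.20, adjusted p = 0.00428). This call held without any 1 library. *Tspan8* (-2.06), *Gfra1* (-1.69) and *Etv5* (-1.36) differed in the same direction, each lower at 15 months in both fractions. *Gfra1* and *Etv5* lost these calls without any 1 of the 6-day or the 15-month KIT+ libraries or of the 6-day KIT- libraries (adjusted p = 0.051 to 0.098 and 0.052 to 0.091), and *Tspan8* without 15-month KIT+ replicate 1, 6-day KIT+ replicate 2 or 6-day KIT- replicate 1 or 2 (0.057, 0.054, 0.07 and 0.056). *Zbtb16* and *Pou5f1* had opposite signs in the 2 fractions, with log2 fold changes of -0.74 and -0.73 in KIT+ cells and 0.45 and 1.67 in KIT- cells (adjusted p = 0.0138 and 0.0403 for the difference). *Zbtb16* lost the call without 15-month KIT+ replicate 2 (0.065), 6-day KIT- replicate 1 or 2 (0.054 and 0.06) or 6-day KIT+ replicate 1 (0.063), and *Pou5f1* without 15-month KIT+ or KIT- replicate 2 (0.085 and 0.061), 6-day KIT+ replicate 1 or 2 (0.13 and 0.11) or 6-day KIT- replicate 1 or 2 (0.14 and 0.097). In all, 9 of 30 undifferentiated markers had a KIT+ age difference under the KIT- age difference.

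Spermatid genes made up the far end of that comparison. Of 48 tested, 21 had a KIT+ age difference under that of KIT- cells and 0 above it; *Tnp2*, a transition protein of condensing spermatids, was at 64.2 and 54.7 RPKM in 15-month KIT- cells and 2.37 and 1.57 RPKM in 15-month KIT+ cells (difference -4.25 ± 0.31, adjusted p = 0.00327). With voom on recovered reads this difference was not called (0.27), nor were those of *Tnp1* (0.35), *Prm1* (0.27), *Prm2* (0.57), *Oaz3* (0.26) and *Ms4a5* (0.32). Cell cycle genes lay at the other end, with 12 of 45 DNA replication genes and 12 of 46 mitosis genes above the KIT- age difference and 0 under it. Within KIT+ cells 8 of 45 replication genes rose and 2 fell, and 4 of 46 mitosis genes rose and 0 fell, against 9.08% and 5.95% of all genes. The replication gene *Ccne2*, cyclin E2, rose from 9.20 and 13.0 RPKM to 25.0 and 31.3 RPKM (1.28 ± 0.20, adjusted p = 0.00533). The mitosis gene *Ccnb2*, cyclin B2, rose from 28.5 and 28.3 RPKM to 50.1 and 43.5 RPKM (0.70 ± 0.11). After the length and GC correction, 4 replication genes rose and 2 fell, 2 mitosis genes rose and 0 fell, and *Ccnb2* was not called. Without a 6-day or a 15-month KIT+ library the number of genes that differed fell to 147 to 241, without a 6-day KIT- library to 151 and 178, and without a 15-month KIT- library it rose to 1261 and 1768.

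**Figure D5:**
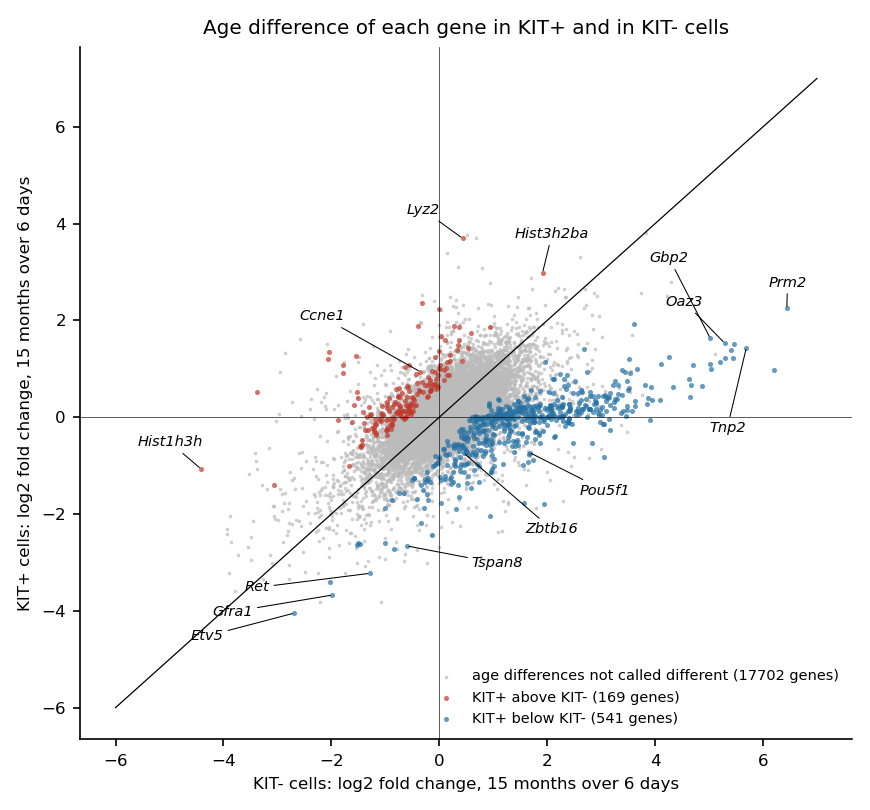
Log2 fold change of 15 months over 6 days in KIT- cells (x axis) and KIT+ cells (y axis) for the 18412 genes tested, with the line of equal change. The 541 genes in blue had a KIT+ age difference under that of KIT- cells, with *Prm2*, *Tnp2* and *Oaz3* at the right and *Ret*, *Gfra1* and *Etv5* at the bottom; the 169 in red lay above it.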

How the data were processed

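RNA-seq was analysed from Oct4-GFP+ spermatogonia. The deposited values are RPKM per gene, which the authors made from paired-end reads of ribosome-depleted RNA on mm9; the methods name Trimmomatic, featureCounts and Ensembl gene models, the submitters' processing notes name Trim Galore and RSEM, and TopHat is named for the assembly of lncRNAs; which aligner and tool gave the RPKM values is not given in the sources used here. RPKM ties each value to exon length and library total, so short genes and a few very abundant genes weigh on it.

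Reads were recovered from RPKM, exon length and library total (98.1% to 98.3% whole within 0.05) and used for depth and filtering: a gene was tested where 2 or more libraries held 10 or more reads, which left 18412 of 37991 identifiers. Differences in log2(RPKM + 1) were tested with limma 3.58.1 (trend; R 4.3.3) in 1 fit of 11 libraries in 6 groups, and called at a Benjamini-Hochberg FDR of 0.05 and a fold change of 1.5, a scale that understates changes of low genes. The p-values rest on the spread between replicates, pooled over every group with 2 libraries, KIT- groups included, and not on the compared groups alone. Of these pairs, the 15-month KIT- libraries lay furthest apart, at a distance of 0.615 against 0.315 to 0.404 for the others. The age differences of KIT+ and KIT- cells were compared as an interaction. On simulated counts for the age comparison (18412 genes), 74% of 100 genes changed 4-fold and 3% of 100 changed 2-fold were recovered. No other gene was changed there, and all genes were given the same assumed spread, whereas 2766 genes were called in the data. The simulated shares therefore do not give the sensitivity of the real comparison.

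Genes were named with values by rule: the 12 coding genes with the largest change in each direction (at least 10 RPKM), 4 non-coding genes in each direction (at least 2 RPKM), the 4 largest called changes of each list, the sort genes, the defining markers, and the 3 largest differences between fractions in each direction. Other genes named in the text were chosen after their values were seen. Lists, comparison and rule were chosen with earlier results of these data known. Alternatives were another pseudocount, filter, scaling, test (voom on the recovered reads), depth, set of libraries, replicate block and, added after seeing the data, a length and GC correction. Promoters came from RefSeq (GRCm38.p6) and were not joined to mm9 coordinates. Some results are not reported here.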

Additional observations from a re-analysis of the deposited data

Results flagged for a closer look

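For 30 named genes the age difference in KIT+ cells differed from that in KIT- cells, by the interaction test in limma. Values are the KIT+ log2 fold change (15 months over 6 days) minus that of KIT- cells. Of the 30 calls, 24 were lost with some library left out. Of the other 6, *Tnp1*, *Tnp2*, *Oaz3*, *Prm1* and *Gbp2* were lost with voom on recovered reads (adjusted p = 0.35, 0.27, 0.26, 0.27 and 0.17), and *Ret* was lost under none of the alternatives.

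In the spermatid genes the KIT+ difference lay under the KIT- difference: *Tnp1* (-5.23), *Tnp2* (-4.25), *Ms4a5* (-4.24), *Prm2* (-4.19), *Oaz3* (-3.76) and *Prm1* (-3.23). The same direction was seen in the interferon-induced GTPase *Gbp2* (-3.39), which was at 51.6 and 72.8 RPKM in 15-month KIT- cells and 4.35 and 2.39 RPKM in 15-month KIT+ cells. Of the genes of undifferentiated cells and their signals it was seen in *Pou5f1* (-2.4), *Tspan8* (-2.06), *Ret* (-1.94), *Gfra1* (-1.69), *Etv5* (-1.36), *Zbtb16* (-1.19) and *Fst* (-1.10). It was also seen in *Glis3* (-1.89), *Smoc2* (-1.39), the RNA-binding proteins *Bicc1* (-1.38) and *Msi2* (-1.16), the PI3K subunit *Pik3cd* (-1.25), *Pdk1* (-1.15) and *Ocln* (-0.91).

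The KIT+ difference lay above the KIT- difference in the histone genes *Hist1h3h* (3.35), *Hist1h2an* (2.85) and *Hist3h2ba* (1.07). *Hist1h3h* was at 133 and 142 RPKM in 15-month KIT+ cells and 5.30 and 13.5 RPKM in 15-month KIT- cells. At 6 days it was at 335.5 and 249 RPKM in KIT+ cells and 168.1 and 246.3 RPKM in KIT- cells. It was thus lower at 15 months in both fractions, with log2 fold changes of -1.07 in KIT+ cells (not called) and -4.42 in KIT- cells. Those of *Hist1h2an* were 1.08 (not called) and -1.78. The KIT+ difference also lay above in the cell cycle genes *Ccne1* (1.3), *Nusap1* (1.12) and *Ccnb2* (0.80), in *Cyp26b1* (1.10), and in the macrophage genes *Lyz2* (3.26) and *Csf1r* (1.06).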

How the results depend on the processing

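With any 1 of the 4 KIT+ libraries left out, 1167 to 1728 genes were called between the ages, 638 to 1044 higher and 524 to 688 lower; of 141 named calls, 82 held each time. With any 1 of the 8 libraries left out, 147 to 1768 genes differed in age difference between KIT+ and KIT- cells (13 to 545 above, 131 to 1223 under), and 6 of 30 named calls held each time. Of these 6, 5 were lost with voom (adjusted p = 0.17 to 0.35), which lost 11 of the 30 and 12 of the 141. Voom on recovered reads called 3597 genes, 1643 of them lower. Without a filter 108 genes lay above the KIT- age difference, and with the length and GC correction 439 did; the cause was not tested. The correction called 1271 genes higher and 1229 lower between the ages, and median-of-ratios scaling 1333 and 1383. Replicate numbers did not pair the KIT+ libraries of the 2 ages, whose deviations from the group means correlated at r = 0.0593. With 2 libraries a group, replicates 1 and 2 give the same r by construction, so it is 1 value. Whether replicate numbers pair KIT+ with KIT- libraries of the same age, which bears on the comparison of fractions, was not tested in this way. A fit with the replicate block called 2710 genes between the ages and 588 between fractions.

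Values that changed sign were those of genes not called between the ages. With the length and GC correction these were *Sohlh1* (-0.17), *Sycp1* (0.08) and *Prm1* (-0.13), and with median-of-ratios scaling *Star* (-0.01). With a KIT+ library left out, *Ms4a5* ranged from -0.05 to 1.33, *Cd68* from -0.74 to 0.22, *Star* from -0.34 to 0.45 and *Dcn* from -0.20 to 0.28. Depth (12238325 reads in the shallowest library) and 2 libraries a group limit what can be called.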
